A study of Mus musculus with 5 samples.

Results

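Laminin chain genes and integrin subunit genes were compared between mouse glioma and normal mouse brain. They were taken as every probe whose RefSeq accession maps to a symbol of the Lama, Lamb, Lamc, Itga or Itgb series, which gave 46 of the 55681 probes on the array and 35 of the 21154 named genes. The reference list of genes holds 37 such symbols, and no probe was matched to the other two, Itga10 and Itgae. Of the 35 genes, 33 passed the filter on dim probes, and Itgad and Itgb6 did not. The study set 3 gliomas beside 2 normal brain samples from mice of postnatal day 150, and total RNA of each sample went on its own single-colour Agilent array. The glioma model was built on MADM, mosaic analysis with double markers, a genetic method that leaves sparse mutant cells marked by colour among normal ones. The labels used here name no strain, mutated gene, Cre driver, brain region or sex. They also leave unsaid whether RNAs of a group came from different mice, and the p-values then describe only how far these samples spread, which may be technical.

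Laminins are cross-shaped proteins of basement membranes, each assembled from an alpha, a beta and a gamma chain. Integrins are paired receptors of an alpha and a beta subunit that span the cell membrane and tie laminins, collagens, fibronectin or ligands on other cells to the cytoskeleton. In the brain, laminins line blood vessels and the surface of the brain, astrocyte endfeet hold on to them, and a separate set of integrins is carried by leukocytes and microglia.

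The arrays were alike in quality, with 61.5% to 70.3% of spots well above background and no saturated spot other than controls. All 5 arrays shared a slide, with gliomas in row 1 and normal brain in row 2, so slide row and group cannot be told apart. Levels below are log2 processed signals relative to the array's 75th percentile of signal, each gene is given by its brightest probe, and a level of one gene cannot be set against that of another. Differences are glioma minus normal brain from limma (n = 3 and n = 2), ± the standard error of the fit, and a gene was called at an adjusted p under 0.05 over the 16891 genes tested. Across genes, which are not independent replicates, Pearson's r was 0.974 to 0.982 between gliomas, 0.996 between normal brain arrays and 0.857 to 0.874 between arrays of different groups. Markers of oligodendrocyte progenitors were higher in glioma in 6 of 6 cases, with a summed level of 293 to 349 in gliomas against 34.6 to 35.3 in normal brain, where a summed level adds the list's signals relative to the array's 75th percentile. Markers of neurons fell in 8 of 8 cases, with a summed level of 33.3 to 54.6 in gliomas against 321 to 328 in normal brain. Of all genes tested 23.6% were called higher and 27.8% lower. In such tissue RNA, fewer cells of a type and less RNA per cell cannot be told apart.

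For 22 of the 35 genes RefSeq promoter windows of the GRCm38.p6 build were at hand, running from 250 bases before to 50 bases after a transcript's start, in 25 windows. The 5 windows below belong to genes that the results turn on: Itga8, Itgax and Itgb1 were higher in glioma, and Lama2 and Lamb2 were lower. They are printed on the transcribed strand, in lower case with matches of GGGCGG, the GC box of many housekeeping promoters, and of GAGGAA, a core bound by the myeloid factor PU.1, in capitals, on either strand.
Itga8 promoter, chr2:12301895-12302194, minus strand: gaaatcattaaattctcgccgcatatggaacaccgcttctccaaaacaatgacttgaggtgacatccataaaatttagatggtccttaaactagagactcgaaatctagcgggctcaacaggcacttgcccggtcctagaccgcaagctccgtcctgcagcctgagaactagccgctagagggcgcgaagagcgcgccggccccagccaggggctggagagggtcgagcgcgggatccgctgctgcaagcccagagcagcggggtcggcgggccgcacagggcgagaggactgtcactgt
Itgax promoter, chr7:128129300-128129599, plus strand: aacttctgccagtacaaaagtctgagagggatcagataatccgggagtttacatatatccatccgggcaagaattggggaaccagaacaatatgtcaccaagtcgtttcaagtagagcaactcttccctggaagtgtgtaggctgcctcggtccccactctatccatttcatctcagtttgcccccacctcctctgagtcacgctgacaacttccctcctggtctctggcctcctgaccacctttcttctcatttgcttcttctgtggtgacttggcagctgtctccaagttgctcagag
Itgb1 promoter, chr8:128685404-128685703, plus strand: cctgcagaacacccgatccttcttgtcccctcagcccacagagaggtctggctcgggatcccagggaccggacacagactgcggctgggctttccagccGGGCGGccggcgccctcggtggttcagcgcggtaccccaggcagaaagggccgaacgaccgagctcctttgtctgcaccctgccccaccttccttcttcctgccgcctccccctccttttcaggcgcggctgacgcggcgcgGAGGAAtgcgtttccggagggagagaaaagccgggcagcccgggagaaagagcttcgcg
Lama2 promoter, chr10:27616893-27617192, minus strand: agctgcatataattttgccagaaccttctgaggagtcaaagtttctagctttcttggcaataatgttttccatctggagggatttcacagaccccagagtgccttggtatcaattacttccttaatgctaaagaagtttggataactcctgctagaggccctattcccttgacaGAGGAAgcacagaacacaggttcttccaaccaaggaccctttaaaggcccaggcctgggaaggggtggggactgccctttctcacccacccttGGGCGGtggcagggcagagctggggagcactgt
Lamb2 promoter, chr9:108479612-108479911, plus strand: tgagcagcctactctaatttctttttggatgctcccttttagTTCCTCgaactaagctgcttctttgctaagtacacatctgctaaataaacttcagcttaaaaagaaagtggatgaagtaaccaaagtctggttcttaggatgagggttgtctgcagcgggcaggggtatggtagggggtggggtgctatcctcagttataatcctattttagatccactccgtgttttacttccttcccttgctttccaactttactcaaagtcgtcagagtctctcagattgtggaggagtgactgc

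The printed windows differed in CpG content, with 23 CpG pairs in the Itga8 window and 27 in the Itgb1 window, against 5 in that of Itgax, 1 in that of Lama2 and 4 in that of Lamb2. These 5 windows were picked from 25, and CpG content was not compared between genes higher and genes lower in glioma. The median was 12 over the 25 windows and 7 over all 32851 windows in the table. The GC box, searched as GGGCGG or CCGCCC, was found in 12 of the 25 windows, or 48.0%, and in 35.7% of all windows. GAGGAA or TTCCTC was found in 14, or 56.0%, against 28.3% of all windows. The TATA sequence TATAAA or TTTATA was in none of the 25, against 13.6% of all windows. None of these motifs overlaps another in the printed windows. The Itgax and Itga8 windows held none of the 3 motifs, which says only that these letters are not in those windows.

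Of the 33 genes tested, 10 rose and 12 fell in glioma, a called share of 66.7%, where 51.4% of all 16891 genes tested were called, 23.6% as higher and 27.8% as lower. The median difference of the 33 genes was 0.18, against -0.05 over all genes tested, and the median size of the difference without its sign was 1.24 against 0.743. Of the 22 called members 8 differed by at least 4-fold, which is 8 of 33 tested, against 16.5% of all genes tested. In 25 members, or 75.8%, the glioma and normal brain arrays did not overlap, close to the 74.1% of all genes tested. The member with the largest fall, Itga3, stood 928th by size of difference among the 4693 genes called lower. The split of calls depended on the scaling, for the members and for all genes. In the value table of the authors, left without scaling between arrays, 11 members were higher and 7 lower. That is 61.1% higher, against 45.5% in the scaled values, and the median of all genes moved to 0.31. Over all genes 63.7% of calls were higher there, against 46% in the scaled values. With quantile normalization 10 members were higher and 8 lower (55.6%), and over all genes 48% of calls were higher. Leaving out either normal brain array leaves 1 in that group. Fewer members, and fewer of all genes, were then called in each direction.

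**Figure D1:**
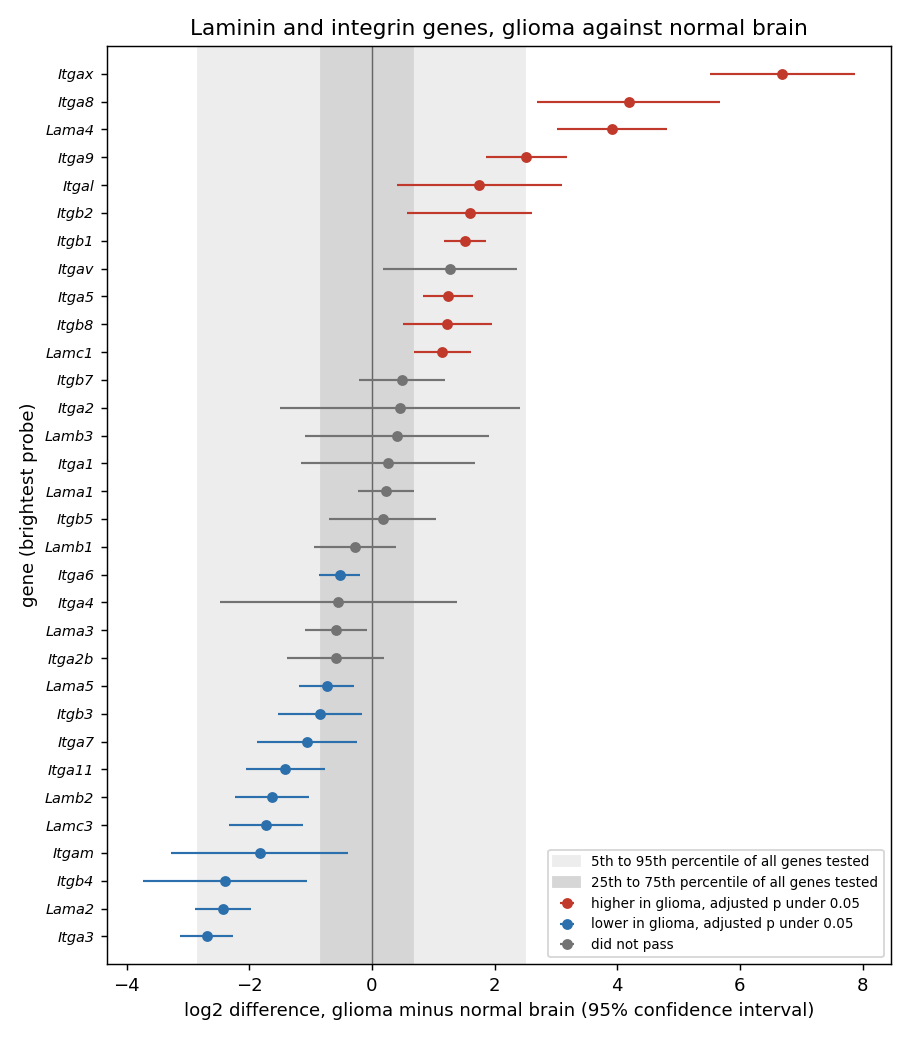
Log2 differences, glioma minus normal brain, of 32 of the tested laminin and integrin genes with 95% confidence intervals of the limma fit (3 glioma and 2 normal brain arrays). The bands span the 5th to 95th percentile (-2.83 to 2.50) and the 25th to 75th percentile (-0.83 to 0.67) of all 16891 genes tested, and Itgax at 6.69, with a normal brain signal at the edge of detection, lies farthest from 0.

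Among the laminin alpha chains, Lama4 was higher and Lama2 and Lama5 were lower in glioma. Lama4, a chain of endothelial basement membranes, stood at 1.93, 1.80 and 2.82 on glioma arrays 1 to 3, against -1.88 and -1.59 on the normal brain arrays. Every glioma lay far above both normal brain samples, and the 15.1-fold difference was much larger than the spread within either group (3.92 ± 0.35, adjusted p = 0.000961). Lama2, the alpha chain of muscle laminin that astrocytes and vessel walls of the brain also make, stood at -1.48, -1.29 and -1.73 in gliomas, against 0.91 and 0.94 in normal brain. The groups were separate, with a 5.36-fold lower signal in glioma (-2.42 ± 0.18, adjusted p = 0.000633), and a second Lama2 probe gave -2.49 ± 0.21. Lama5, a chain found widely in adult basement membranes, had levels of 0.20, -0.07 and -0.16 in gliomas, against 0.61 and 0.84 in normal brain. Its fall was small (-0.74 ± 0.18, adjusted p = 0.0208). The Lama5 call did not pass without glioma replicate 2 (adjusted p = 0.0565), without normal brain replicate 1 (0.0855) or 2 (0.162), or in the unscaled value table, where its difference was -0.38. Lama1, a chain of embryonic and pial basement membranes, did not pass (0.22 ± 0.18), nor did Lama3, an epithelial chain (-0.59 ± 0.20, adjusted p = 0.0559, and 0.0401 without glioma replicate 3).

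Among the beta and gamma chains described here, Lamc1 was higher, and Lamb2 and Lamc3 were lower. Lamc1, the gamma chain of most laminins, stood at 2.63, 2.63 and 3.02 in gliomas, against 1.61 on both normal brain arrays. It was 2.22-fold higher in glioma (1.15 ± 0.18, adjusted p = 0.00519), with no overlap. Lamb2, a beta chain of vessel and synaptic basement membranes, stood at -1.11, -0.66 and -1.36 in gliomas, against 0.55 and 0.62 in normal brain (-1.63 ± 0.24, adjusted p = 0.00412). Lamc3, a gamma chain of the pial and retinal surfaces, stood at -3.74, -3.43 and -3.06 in gliomas, against -1.74 and -1.61 in normal brain (-1.73 ± 0.24, adjusted p = 0.00325). In both genes the groups were separate. Lamb1, the most common beta chain, had a difference of -0.28 ± 0.26 with overlapping groups, which passed without glioma replicate 1 (-0.51, adjusted p = 0.0390) and was 0.08 in the unscaled value table. Lamb3, the beta chain of the epithelial laminin, had one of 0.41 ± 0.59 and a 95% interval of -1.09 to 1.91.

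**Figure D2:**
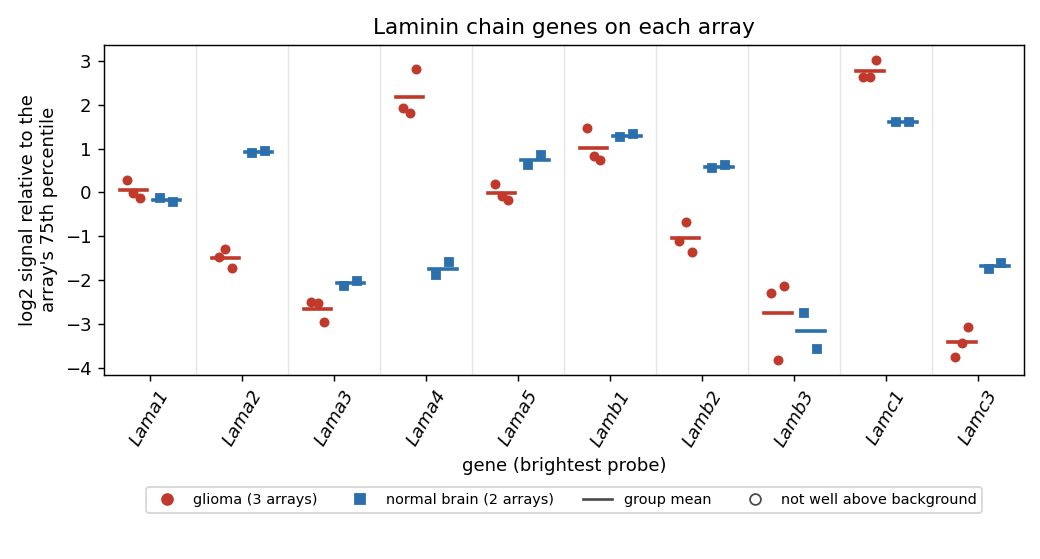
Levels of 10 laminin chain genes on each array, as log2 signal relative to the array's 75th percentile, with red circles for the 3 gliomas, blue squares for the 2 normal brain samples and a bar at each group mean. Lama4 and Lamc1 lie higher in every glioma, and Lama2, Lamb2 and Lamc3 lie lower in every glioma than in either normal brain sample.

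Laminins in the brain come largely from vessels, the pial surface and astrocytes, and markers of vessels differed between the groups as well. Of 11 endothelial markers 9 fell and 2 did not pass, where 27.8% of all genes tested were called lower. Their summed level was 12.3 to 15.9 in gliomas against 24.9 to 27.7 in normal brain. Without normal brain replicate 1 or 2, 5 endothelial markers fell. Of 12 markers of mural cells and fibroblasts 10 fell, and the summed level was 6.79 to 9.37 in gliomas against 22.8 to 23.3 in normal brain, and 6 fell when normal brain replicate 1 or 2 was left out. Of 9 astrocyte markers 3 fell, or 33.3%, against 27.8% of all genes tested, and 6 did not pass. Their summed level was 205 to 345 in gliomas against 363 to 373 in normal brain. Aldoc, the brightest of these markers, weighs most in that sum and did not pass in limma (-0.54 ± 0.30, adjusted p = 0.189). The lower sum therefore does not show a fall across the astrocyte list. All 7 choroid plexus markers fell, with a summed level of 0.396 to 0.597 in gliomas against 248 to 254 in normal brain. The part of these cells in the falls of Lama2, Lama5, Lamb2 and Lamc3 was not tested. Lama4 and Lamc1 rose, while 9 of 11 endothelial and 10 of 12 mural and fibroblast markers fell. The part of these cells in the 2 rises was not tested either.

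All 4 genes of the laminin-binding integrins were lower in glioma, where 27.8% of all genes tested were called lower. Itga3, an alpha subunit that pairs with beta 1 and binds laminins of epithelia and vessels, stood at -3.81, -3.92 and -3.61 in gliomas, against -0.95 and -1.21 in normal brain. It had the largest fall of the 33 genes, 6.48-fold (-2.70 ± 0.17, adjusted p = 0.000514), and the difference was -1.89 with normexp, a background correction whose added offset compresses dim signals. Itgb4, which pairs with alpha 6 and anchors epithelial cells in hemidesmosomes, stood at -0.85, -1.18 and -2.53 in gliomas, against 0.79 and 0.97 in normal brain. Glioma 3 was the lowest, and no glioma reached the level of either normal brain sample (-2.40 ± 0.53, adjusted p = 0.0156). Itga7, a laminin receptor best known from muscle, stood at 1.22, 1.30 and 0.39 in gliomas, against 1.93 and 2.13 in normal brain (-1.06 ± 0.32, adjusted p = 0.0415). Itga6, the partner of both beta 1 and beta 4 and a surface marker of stem cells, showed the smallest change among all called members, 2.05, 2.18 and 2.09 in gliomas against 2.60 and 2.65 in normal brain (-0.52 ± 0.13, adjusted p = 0.0241). Without normal brain replicate 1 or 2, Itgb4 (adjusted p = 0.0675 and 0.0803), Itga7 (0.129 and 0.184) and Itga6 (0.163 and 0.188) did not pass, and neither did Itga7 without glioma replicate 1 (0.0580). Itga6 and Itga7 also did not pass in the unscaled value table (-0.16 and -0.70) or with quantile normalization (adjusted p = 0.0518 and 0.0550), nor Itga7 with median scaling (0.0516).

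The shared beta 1 subunit went the other way. Itgb1, the partner of most alpha subunits and of the laminin-binding alpha subunits above, stood at 1.27, 1.26 and 1.30 in gliomas, against -0.34 and -0.15 in normal brain. The gliomas were nearly identical to each other and 2.87-fold above normal brain (1.52 ± 0.14, adjusted p = 0.000962). A second Itgb1 probe gave 1.40 ± 0.16. Of all 15 alpha subunits tested, including those that pair with other beta subunits, 5 were higher, 5 lower and 5 did not pass. That is 66.7% called, against 51.4% of all genes tested.

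The largest rise among the alpha subunits that pair with beta 1 was that of Itga8, a receptor for nephronectin and other RGD proteins, a class with a short arginine-glycine-aspartate motif. Itga8 stood at 2.75, 1.55 and 3.53 in gliomas, against -1.61 and -1.55 in normal brain. The gliomas differed widely among themselves and all lay above normal brain, by 18.2-fold on average (4.19 ± 0.58, adjusted p = 0.00353). Itga9, whose product binds tenascin-C, osteopontin and VCAM1, stood at 1.72, 1.49 and 0.96 in gliomas, against -1.05 and -1.20 in normal brain. It was 5.72-fold higher in glioma (2.52 ± 0.26, adjusted p = 0.00141), with no overlap. Itga5, the alpha subunit of the classical fibronectin receptor, stood at -3.19, -3.12 and -2.89 in gliomas, against -4.24 and -4.37 in normal brain (1.24 ± 0.16, adjusted p = 0.00262), and with normexp the difference was 0.50. Itga4, which pairs with beta 1 or beta 7 on leukocytes and binds VCAM1, did not pass: its levels were -3.02, -0.93 and -0.98 in gliomas, against -0.56 and -1.63 in normal brain. Glioma 1 was the low sample there, and without it the difference of -0.55 ± 0.76 was 0.14.

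Of 3 collagen-binding subunit genes tested 1 was called, or 33.3%, against 51.4% of all genes tested. With 3 genes these shares cannot be compared. Itga11, a collagen receptor of fibroblasts, stood at -2.87, -3.08 and -2.34 in gliomas, against -1.29 and -1.41 in normal brain, and fell 2.66-fold (-1.41 ± 0.25, adjusted p = 0.00797), a call that did not pass without normal brain replicate 1 (adjusted p = 0.0602). Itga1, another collagen receptor, had levels of -3.28, -2.42 and -1.43 in gliomas, against -2.84 and -2.45 in normal brain, and its difference of 0.27 ± 0.55 was -0.21 without glioma replicate 3. Itga2, a collagen receptor of platelets and epithelia, was well above background on 1 of 3 glioma arrays and 1 of 2 normal brain arrays, and no difference was detectable at that signal (0.46 ± 0.77). Its difference was -0.71 without normal brain replicate 2.

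The alpha v subunit and its beta partners were mixed. Itgav stood at 0.50, 0.24 and 1.58 in gliomas, against -0.58 and -0.41 in normal brain. All gliomas lay above normal brain, yet its brightest probe did not pass (1.27 ± 0.43, adjusted p = 0.0575), while its other probe did (1.07 ± 0.28, adjusted p = 0.0278 over all probes tested). Itgav on its brightest or another probe passed in 11 of 16 alternatives, among them the fits without glioma replicate 2 (adjusted p = 0.0489) or 3 (0.0158). Itgb8, whose pair with alpha v releases latent TGF-beta, stood at -1.63, -0.92 and -0.80 in gliomas, against -2.34 and -2.35 in normal brain (1.23 ± 0.28, adjusted p = 0.0184). Itgb3, the beta subunit of the vitronectin receptor and of the platelet fibrinogen receptor, stood at -1.58, -1.23 and -2.06 in gliomas, against -0.81 and -0.74 in normal brain (-0.85 ± 0.27, adjusted p = 0.0478). Itgb5, another vitronectin receptor subunit, had overlapping groups (0.18 ± 0.34, and -0.15 without glioma replicate 2). Without normal brain replicate 1 or 2 neither Itgb8 nor Itgb3 passed, and Itgb8 did not pass without glioma replicate 2 (adjusted p = 0.0562). Itgb3 lost its call in 9 alternatives. Among the others were the fit without glioma replicate 1 (adjusted p = 0.0922) and, separately, the unscaled value table (-0.49, adjusted p = 0.277). Median scaling (0.0590) and quantile normalization (0.0542) were further ones. Itgb6, a subunit of epithelial cells, had 2 probes, neither of them well above background on an array of either group.

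Itga2b, which joins beta 3 in the platelet fibrinogen receptor, was well above background on 2 of 3 glioma arrays and 1 of 2 normal brain arrays and did not pass (-0.59 ± 0.31). Of 6 platelet markers 4 were tested and all 4 fell, where 27.8% of all genes tested were called lower. Their summed level was 0.266 to 0.322 in gliomas against 1.06 to 1.36 in normal brain. Ppbp, a platelet chemokine, was not well above background on any glioma array. The part of platelets in the fall of Itgb3 was not tested.

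**Figure D3:**
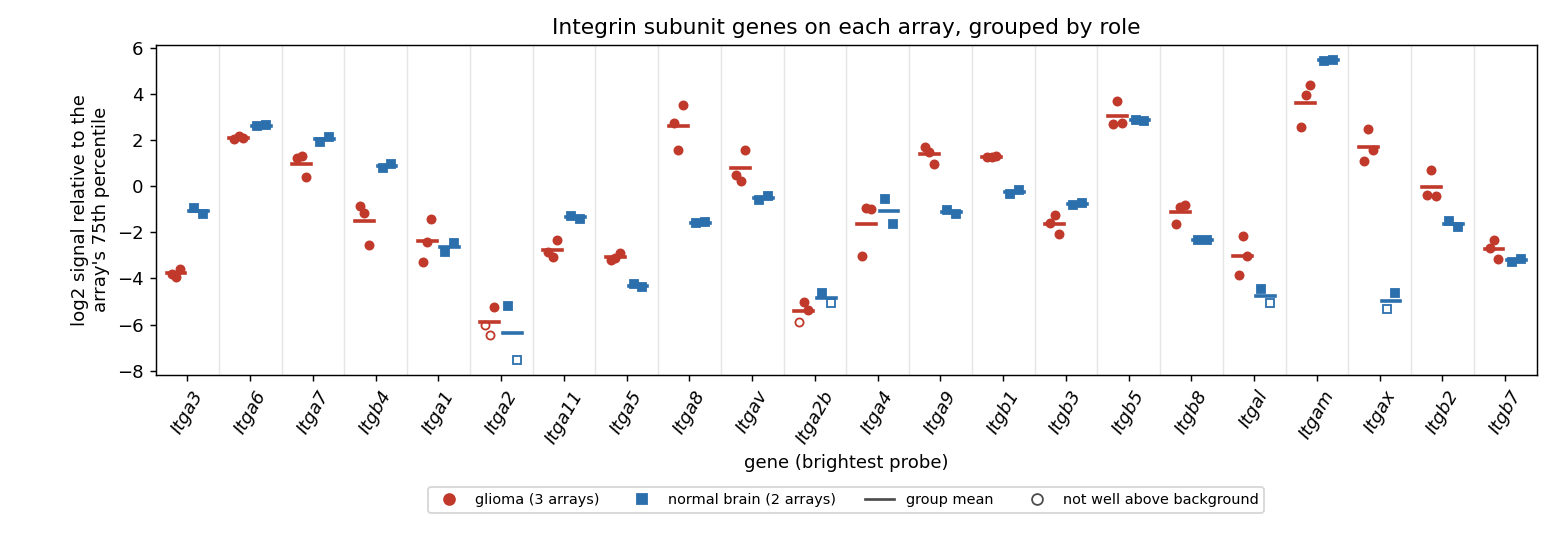
Levels of the 22 tested integrin subunit genes on each array, as log2 signal relative to the array's 75th percentile, ordered by role, with red circles for the 3 gliomas, blue squares for the 2 normal brain samples, a bar at each group mean and open symbols where a probe was not well above background. Itga8, Itga9, Itgb1 and Itgax lie higher in every glioma, and Itga3 and Itgb4 lie lower in every glioma than in either normal brain sample.

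Of the 5 leukocyte integrin genes tested 3 rose, led by Itgax, where 23.6% of all genes tested were called higher. Itgax encodes CD11c, the alpha subunit of complement receptor 4 on dendritic cells and activated microglia. Its level was 1.08, 2.46 and 1.57 in gliomas, against -5.33 and -4.64 in normal brain, where it was well above background on replicate 2 only. The fitted difference of 6.69 ± 0.46 (adjusted p = 0.000571), or 104-fold, rests on a signal at the edge of detection in normal brain, and it was 4.79 with normexp. Itgb2 encodes CD18, the shared beta subunit of the leukocyte integrins, and stood at -0.40, 0.71 and -0.43 in gliomas, against -1.50 and -1.76 in normal brain (1.60 ± 0.40, adjusted p = 0.0233). Itgal encodes CD11a, which with CD18 binds ICAM proteins, and stood at -3.85, -2.17 and -3.02 in gliomas, against -4.46 and -5.08 in normal brain, where it was well above background on replicate 1 only (1.75 ± 0.53, adjusted p = 0.0412). Its second probe was well above background on all gliomas and on no normal brain array. The approximate lower bound of its rise was 3.83-fold, set against each array's lowest signal well above background or the probe's own value where higher. Probes not well above background can exceed that lowest signal, so the bound is not strict. Itgb2 did not pass without normal brain replicate 1 (adjusted p = 0.0835) or 2 (0.118), and Itgal did not pass without glioma replicate 2 (0.0603) or 3 (0.0938), without normal brain replicate 1 (0.0917) or 2 (0.187), or with normexp, where its difference was 0.72. Itgb7, which pairs with alpha 4 and alpha E on lymphocytes, had a difference of 0.49 ± 0.28 that passed without glioma replicate 3 (0.72, adjusted p = 0.0299). Itgad, the CD11d gene, was well above background on normal brain array 1 only and was not tested.

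Itgam, which encodes CD11b of microglia and neutrophils, gave different answers on its 3 probes. Its brightest probe stood at 2.55, 3.95 and 4.38 in gliomas, against 5.44 and 5.48 in normal brain (-1.83 ± 0.56, adjusted p = 0.0439). The next stood at -2.07, -1.33 and -2.55 in gliomas, against -2.51 and -2.36 in normal brain, a difference of 0.45 ± 0.37. The third gave -0.08 ± 0.23. The fall is thus shown by 1 probe of 3, and the mean of the 3 probes did not pass (-0.49, adjusted p = 0.204). Even on the brightest probe the call did not pass without glioma replicate 2 (adjusted p = 0.0802) or without normal brain replicate 1 (0.148) or 2 (0.154), or in the unscaled value table (-1.48, adjusted p = 0.0784). Itgam was the only 1 of the 7 members with several tested probes whose probes differed in sign, against 865 of 4600 such genes on the whole array. Tested probe by probe, 51.4% of 22489 probes were called, 23.4% as higher and 27.9% as lower, and the groups did not overlap in 73.8%.

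**Figure D4:**
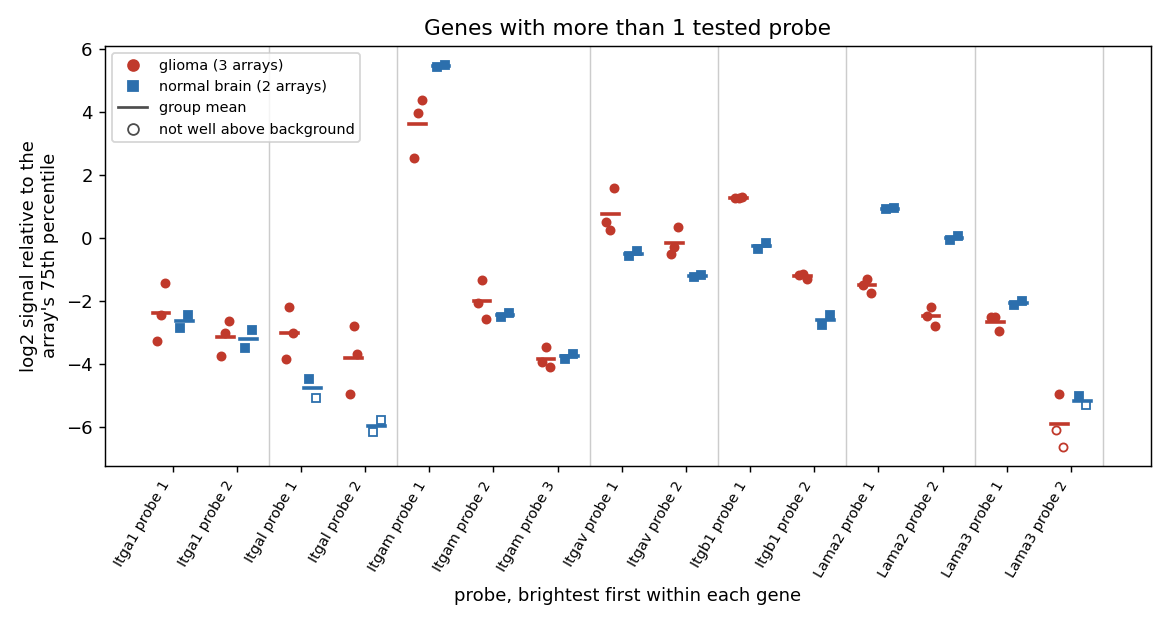
Levels of each probe of the 7 member genes with more than 1 tested probe, as log2 signal relative to the array's 75th percentile, with red circles for the 3 gliomas, blue squares for the 2 normal brain samples, bars at group means and open symbols where a probe was not well above background. Both probes of Itgal, Itgav, Itgb1 and Lama2 point the same way, and the brightest Itgam probe, with a difference of -1.83, departs from the other two.

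Of 12 markers of microglia and macrophages 5 rose and 7 did not pass, a called share of 41.7% against 51.4% of all genes tested. The markers C1qa and Cd68 rose (2.02 and 1.86), while the homeostatic microglial markers P2ry12 and Fcrls did not pass (-0.29 and 0.04), all 4 picked after their values were seen. For the whole list the summed level was 80.7 to 223 in gliomas, highest in glioma 2, against 65.8 to 68.3 in normal brain. The count of 5 markers was 1 without normal brain replicate 1 and 0 without replicate 2, and 2 without glioma replicate 1 and 8 without glioma replicate 3. Glioma 2 was also the highest sample for Itgax, Itgb2 and Itgal. The summed level was 125 in glioma 1 and 80.7 in glioma 3. Itgax (1.08 and 1.57) and Itgal (-3.85 and -3.02) were lower in glioma 1 than in glioma 3, and Itgb2 was similar in both (-0.40 and -0.43). The brightest Itgam probe was highest in glioma 3 among the gliomas (4.38). The median difference of the 12 markers was 1.14. Of 10 markers of lymphocytes, neutrophils and monocytes only 3 were detected well enough to be tested and none passed in limma (1 at an unadjusted p under 0.05). The part of microglia and other leukocytes in these differences was not tested.

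Ligands that integrins bind outside the laminins were also split, with 7 of 19 higher and 6 lower, or 68.4% called. Of all genes tested 51.4% were called, 23.6% as higher and 27.8% as lower. Tnc, the matrix protein tenascin-C, was well above background on all gliomas and on no normal brain array. The approximate lower bound of its rise was 6.54-fold. Icam1, a ligand of the CD18 integrins, rose by 2.51 ± 0.23 (well above background on 1 normal brain array of 2), and Ltbp1, which stores latent TGF-beta in the matrix, rose by 2.23 ± 0.44. Icam5, a neuronal ligand of the same integrins, fell (-3.08 ± 0.22), as did the plasma and vessel protein gene Vtn (-2.20 ± 0.14) and the endothelial ligand gene Icam2 (-1.78 ± 0.31). With normexp the fitted changes of Tnc and Icam1 were 0.91 and 1.04. The fall of Icam5 stood beside the falls of all 8 neuronal markers, whose part in it was not tested.

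Partners of laminin in the basement membrane had 4 of 14 tested genes higher and 4 lower, with a median difference of 0.004. That is 57.1% called, near the 51.4% of all genes tested. Smoc1, a calcium-binding matrix protein, rose by 3.25 ± 0.16, Ntn4, a netrin that binds laminin gamma chains, by 2.13 ± 0.19 and the collagen IV chain gene Col4a4 by 2.09 ± 0.39. Smoc2, the close relative of Smoc1, fell (-2.71 ± 0.23), as did Nid2, the nidogen that links laminin to collagen IV (-1.07 ± 0.20), and the collagen IV chain gene Col4a5 (-0.90 ± 0.24). Smoc1 and Smoc2 thus went in opposite directions. With normexp Ntn4 changed by 0.86 and Col4a4 by 1.38.

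Dystroglycan is the other main laminin receptor of brain cells, and a list of 16 genes held its complex, its glycosylation and Bcam, a separate laminin alpha 5 receptor. Of these 5 were higher and 5 lower, Bcam among them, or 62.5% called, against 51.4% of all genes tested. Dag1, which encodes dystroglycan itself, rose by 1.02 ± 0.32 (adjusted p = 0.0483), next to Pomt2, an enzyme that starts its sugar chains (1.48 ± 0.16), and the sarcoglycan gene Sgcd (0.79 ± 0.17). Bcam fell (-2.48 ± 0.14), as did Dmd, whose product dystrophin links dystroglycan to actin (-2.29 ± 0.17). The second brightest Dmd probe gave -0.37 and did not pass (adjusted p = 0.271).

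Inside the cell, of 24 tested genes of integrin activation and adhesion sites 8 were higher and 6 lower. That is 58.3% called, near the 51.4% of all genes tested. Lims2 and Rsu1, partners in the integrin-linked kinase complex, rose by 2.49 ± 0.16 and 1.60 ± 0.14. Ilk, the gene of that kinase, did not pass (0.13 ± 0.13). Fermt3, the kindlin of blood cells, rose by 1.50 ± 0.37. Ptk2b, a kinase related to focal adhesion kinase that is abundant in neurons, fell (-3.15 ± 0.15). Parva, the actin linker gene of the integrin-linked kinase complex, fell as well (-2.09 ± 0.15), as did the actin crosslinker gene Actn1 (-1.89 ± 0.17). Of 12 markers of microglia and macrophages 5 rose and 7 did not pass, and all 8 neuronal markers fell. The part of these cells in the changes of Fermt3 and Ptk2b was not tested.

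The counts of these 4 lists shrank in each direction when either normal brain array was left out, as did the counts over all genes. Among the genes named, several calls did not pass then. Without replicate 1 these were Ltbp1 (adjusted p = 0.0578), Col4a4 (0.0586), Col4a5 (0.144), Dag1 (0.150) and Fermt3 (0.0564), and without replicate 2 Icam2 (0.0555), Ltbp1 (0.0627), Nid2 (0.0808), Col4a5 (0.129), Sgcd (0.128), Dag1 (0.196) and Fermt3 (0.130). Sgcd did not pass with normexp (0.23, adjusted p = 0.147), nor Dag1 with median scaling (adjusted p = 0.0528), nor Col4a5 in the unscaled value table (-0.54). Dag1 also did not pass without glioma replicate 2 (0.0612) or 3 (0.0557), nor Col4a5 without glioma replicate 1 (0.0710) or 3 (0.0502).

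**Figure D5:**
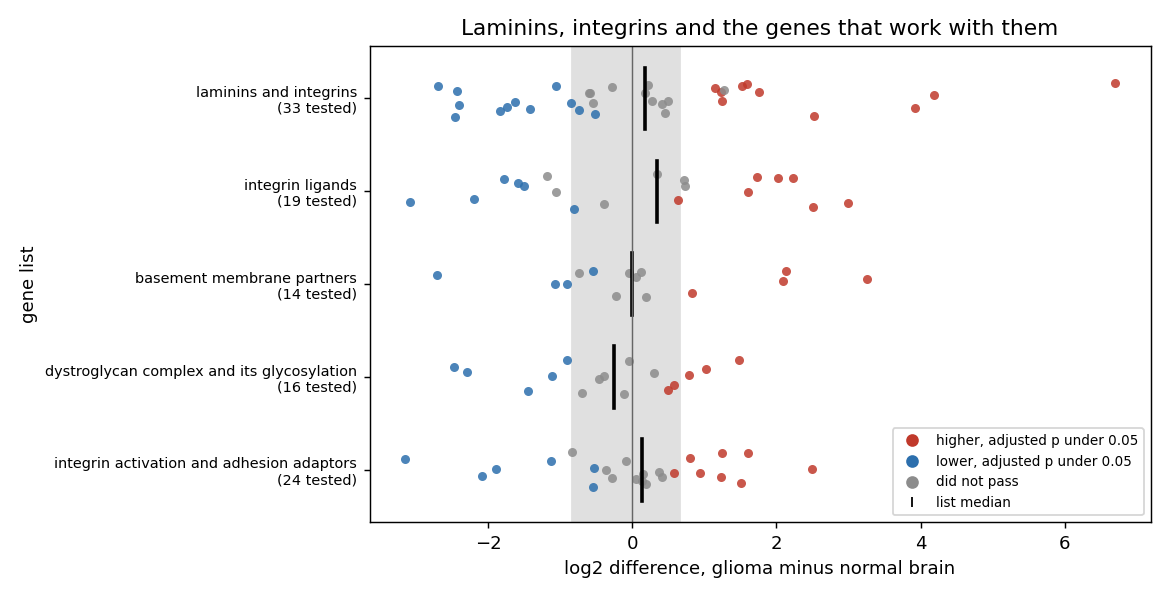
Log2 differences, glioma minus normal brain, of the laminin and integrin genes and of 4 lists of genes that work with them, 1 point per tested gene in red (higher), blue (lower) or grey (did not pass), with a black bar at each list's median. The grey band spans the 25th to 75th percentile of all genes tested, from -0.83 to 0.67, and every list holds genes on both sides of it. Bcam is counted in the dystroglycan list.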

How the data were processed

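Total RNA of 3 gliomas and 2 normal brain samples was measured on single-colour Agilent mouse arrays. The scanner files hold intensity values and 0 or 1 flags of each spot, which the authors read with the Feature Extraction software of Agilent (version 10.7.3.1, per the submitters' processing notes). The deposited value table holds log2 values, which were checked to equal the log2 processed signal (correlation 1 on every array).

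Control spots and 23 probes marked as outliers were left out, repeated spots averaged, and the array's 75th percentile subtracted from the log2 processed signal. Of 55681 probes 28026 were named through RefSeq accessions. Each gene was given by its brightest probe, and genes detected on at least 2 arrays were tested with limma 3.58.1 in R 4.3.3 (lmFit, eBayes, two-sided, Benjamini-Hochberg adjustment). The fit was tested on simulated data. Python 3.11.15, pandas 2.3.3 and matplotlib 3.10.9 made tables and figures. Some genes are not reported here. No more than 3 called genes per direction were named from each partner list. The members and lists were chosen with earlier results of these data known. The mean spot signal was not used here, and normexp was run on median signals.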

Additional observations from a re-analysis of the deposited data

How the results depend on the processing

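The 33 genes were refitted under 16 alternatives, which gave 498 values. Of these 425 kept direction and call, 47 lost the call, 18 gained it and 8 changed sign. Of the 22 called genes 16 kept their call under every alternative that kept all arrays, the second brightest probe aside, 12 kept it when any single array was left out, and none changed sign except Itgam on its second brightest probe. The count of lower members was 7 in the unscaled value table, and 5 to 13 when an array was left out, against 12. Over all genes, leaving out an array gave 1973 to 4333 higher and 2626 to 4992 lower calls, against 3994 and 4693, and calls in the unscaled table were 63.7% higher, against 46.0%. The sign changes, none of which passed under that alternative, were Itga1 with the replicate block and without glioma replicate 3 (both -0.21), Itga2 with normexp (-0.24) and without normal brain replicate 2 (-0.71), Itga4 without glioma replicate 1 (0.14), Itgam on its second brightest probe (0.45), Itgb5 without glioma replicate 2 (-0.15) and Lamb1 in the unscaled table (0.0782). Leaving out an array gave differences of -0.21 to 0.72 for Itga1, -0.71 to 1.63 for Itga2, -1.08 to 0.14 for Itga4 and -0.15 to 0.34 for Itgb5. The cause was not tested. Replicates 1 and 2 share only a number between the groups, with correlations of deviations of 0.01 and 0.05, and with the replicate number as a block 11 members were higher and 9 lower. The planned normexp alternative on mean signals was not run, and those on median signals and on the second brightest probe were chosen after seeing the data. With 1 array left in a group, that array is assumed to vary like the others.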
